A study of Mus musculus with 8 samples.

Results

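The genes described here start in the 25 Mb of mouse chromosome 7 that begin at 80 Mb (GRCm38, GENCODE M21) and had summed counts of 80 or more over the 8 pools of the deposited gene table. The stretch holds 743 annotated genes, of which 714 were in the table and 235 reached that sum; 3 of these, among them *Myo7a*, were left out, which leaves 232 members of the 55890 genes in the table. The stretch was chosen from the same genotype contrast that is described below, so all genotype values of its genes are given as a description. Counts of members past a threshold come from a fit over all genes, stand beside the share of all genes, and are no test of the stretch. A filter on low counts kept 228 of the 232 members and 18637 genes in all. The 4 members it removed, *Vmn2r73*, *Rps13-ps2*, *A230065N10Rik* and *Gm45187*, had between 81.0 and 187 summed counts and overlapping genotypes.

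RNA of the whole hypothalamus of female mice aged 16 weeks was sequenced to ask which transcripts differ when membrane signalling of estrogen receptor alpha is lost in POMC neurons. The 4 POMC-C451Af/f pools came from mice that carry a POMC-Cre transgene and a floxed *Esr1* allele. In this allele the palmitoylated cysteine is changed to alanine only after recombination by Cre. The 4 control pools came from animals that the labels call wildtype. The methods describe them as littermates homozygous for the floxed allele, and neither source gives the controls Cre. Each pool held the RNA of 2 animals, 8 animals per genotype, so the spread between pools is that of pairs of animals. Cre driven by *Pomc* sequences acts in cells that express this gene or did so during development, which are a small share of the hypothalamus. Every POMC-C451Af/f pool holds both recombined cells and others. Pools had 36095253 to 40498166 estimated counts in POMC-C451Af/f mice and 37841365 to 48942116 in controls. Levels are given as CPM, counts scaled to a common library size with TMM factors, and differences as log2 fold changes of POMC-C451Af/f over control with their standard error (SE).

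The C451 residue of estrogen receptor alpha is the site at which palmitate anchors a fraction of the receptor at the plasma membrane, and POMC neurons of the arcuate nucleus are estrogen-responsive cells that restrain feeding. The stretch of chromosome 7 is gene-rich and mixed in function. It carries enzymes and assembly factors of mitochondria, sterol and lipid carriers, large synaptic scaffold genes such as *Dlg2*, the adult beta-globin genes, a cluster of olfactory receptor genes and, between them, a cluster of TRIM genes. TRIM proteins are ubiquitin ligases, several of which act in the defence against viruses, and their mouse cluster has been duplicated repeatedly, so that its members resemble each other closely.

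The 12 hypothalamic markers examined, among them *Pmch*, *Avp*, *Agrp* and *Pomc*, were all detected, with a summed level of 797 to 1330 CPM in POMC-C451Af/f pools and 1090 to 1600 CPM in control pools. Of the 11 tested, 10 were lower in POMC-C451Af/f mice, with a median log2 fold change of -0.23 over the 11. Of these, 1 was lower without overlap, beside 1.45% of all tested genes. The part of these markers in the result was not tested. *Pomc* was measured at 49.5, 50.2, 35.8 and 30.6 CPM in POMC-C451Af/f replicates 1 to 4 and at 98.9, 49.7, 50.5 and 50.8 CPM in control replicates 1 to 4. *Esr1*, the mutated gene, was at 11.6, 12.2, 9.997 and 10.8 CPM in POMC-C451Af/f pools and 12.3, 12.8, 11.6 and 16.0 CPM in control pools, and gene counts cannot tell its alleles apart. The genotypes overlapped for both genes. A list of 8 midbrain dopaminergic markers, all detected and led by *Th*, summed to 213, 166, 336 and 248 CPM in POMC-C451Af/f pools and 150, 126, 167 and 189 CPM in control pools, with the highest sums in POMC-C451Af/f pools 3 and 4. All 8 were higher in POMC-C451Af/f mice, with a median log2 fold change of 1.05. *Th* was higher without overlap, as were 1.34% of all tested genes. In edgeR's fit 7 of the 8 had an unadjusted p under 0.05, beside 5.1% of all tested genes. Their mean level entered an alternative fit as a covariate, given below, and beyond that the part of these 8 markers in the result was not tested. The 8 anterior pituitary markers, led by *Prl*, summed to 17.8 to 225 CPM in POMC-C451Af/f pools and 22.5 to 1450 CPM in control pools, highest in control pool 1; the 5 tested were lower in POMC-C451Af/f mice, with a median log2 fold change of -0.63, and their part in the result was not tested. The 8 choroid plexus markers, led by *Clic6*, summed to 34.8 to 41.7 CPM in POMC-C451Af/f pools and 33.7 to 43.1 CPM in control pools. Of these, 5 were higher and 3 lower in POMC-C451Af/f mice, all with overlapping genotypes. Their median log2 fold change was 0.20 and the median absolute one 0.40. The 8 markers of retinal pigment epithelium and pigment cells were led by *Rlbp1* at 7.67 CPM. No gene of these lists was at 0 in all pools. Apart from the fit with the midbrain covariate, the part of tissue composition in the differences below was not tested. In whole tissue, fewer cells of a type and less RNA per cell cannot be told apart.

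Of the 228 tested members, 124 had a higher and 104 a lower mean level in POMC-C451Af/f mice. In 18 members all 4 POMC-C451Af/f pools lay above all 4 control pools, and in 18 all lay below, where 1.34% and 1.45% of all tested genes did. Unadjusted p-values under 0.05 in edgeR's quasi-likelihood fit over all genes were found for 45 members, 25 higher and 20 lower, beside 5.1% of all tested genes. With the midbrain list as a covariate, added after the data were seen, the count was 26, beside 2.92% of all tested genes. At a false discovery rate (FDR) of 0.05 and an absolute log2 fold change over 0.5, 1 member was called, *Gm44675*, beside 0.0215% of all tested genes; with the replicate number as a block, or with at least 10 counts required in every pool, 0 members were called, beside 0.0107% and 0.0115% of all tested genes. DESeq2 was run over 32164 genes without the filter on low counts, so its share rests on other genes than that of edgeR. It called 6 members at the same thresholds, 4 higher and 2 lower, beside 0.0373% of those genes: *Gm44675*, *Trim34b*, *Gm35082*, *Hddc3*, *Gm44677* and *Trim12a*. The median log2 fold change was 0.01 over the members and 0.00 over all tested genes, and the median absolute log2 fold change was 0.09 and 0.06. Members were thus about as often higher as lower, and most of the differences were small: 9 of the 36 non-overlapping members exceeded an absolute log2 fold change of 0.5.

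**Figure D1:**
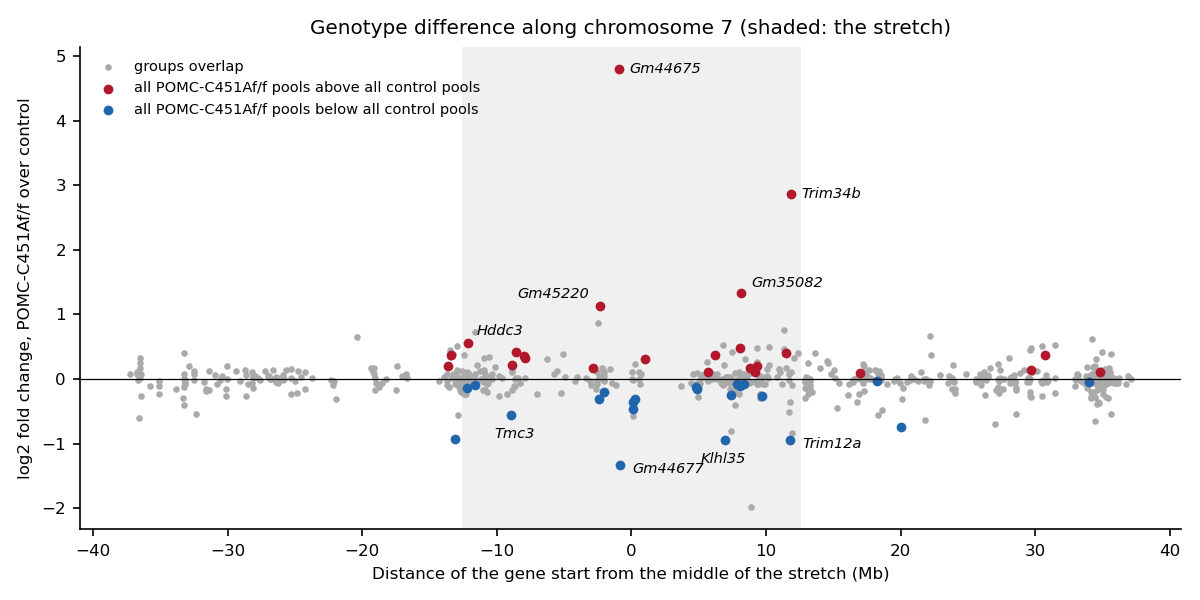
The log2 fold change of POMC-C451Af/f over control for each tested gene (y axis) against the distance of its start from the middle of the stretch in Mb (x axis), with 25 Mb on each side. Red and blue points mark genes whose 4 POMC-C451Af/f pools lay above or below all 4 control pools, and they are dense inside the shaded stretch, with 18 in each direction.

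Along the chromosome the non-overlapping members were spread over the whole stretch, from *Ngrn*, 0.261 Mb after its start, to *Trim34b*, 0.671 Mb before its end. The median distance from one to the next was 0.347 Mb, and the longest, 5.05 Mb, lay between *Fah* and *Me3*. Higher and lower members were mixed in order: 14 of the 35 neighbouring pairs went in the same direction, and the longest run in one direction held 5 genes, from *Stard5* to *Me3*. In bins of 5 Mb the share of tested members whose genotypes did not overlap was 11.6% (8 of 69) at 80 to 85 Mb, 5.88% (1 of 17) at 85 to 90 Mb, 29.0% (9 of 31) at 90 to 95 Mb, 14.6% (6 of 41) at 95 to 100 Mb and 17.1% (12 of 70) in the last 5 Mb. The sparsest bin was the one with the fewest genes, where *Me3* alone was separated. In bins of 1 Mb, 16 of the 25 bins held such a member, and 2 held no tested member.

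The 25 Mb on either side gave 2.22% (3 of 135 tested genes) before the stretch and 2.38% (7 of 294) after it, beside 15.8% (36 of 228) within it, 2.78% over all tested genes and 2.61% over all tested genes outside the stretch. The 3 genes before it, named after their values were seen, were *Aen*, *Hapln3* and *Fanci*, with log2 fold changes of 0.20, 0.38 and -0.93. All 3 lie in the bin next to the stretch, at 75 to 80 Mb, where the share was 8.57% (3 of 35), above the 5.88% at 85 to 90 Mb within the stretch. After the stretch, the bins at 110 to 115 Mb and 120 to 125 Mb had 5.56% (2 of 36) and 4.44% (2 of 45). *Myo7a*, which starts at 98051060 within the stretch and was left out of the members, had 22.8, 25.2, 24.5 and 23.9 CPM in POMC-C451Af/f pools and 42.1, 39.0, 38.5 and 38.6 CPM in control pools, with no overlap and a log2 fold change of -0.72 (SE 0.0442). Of the 3 genes left out, 2 had genotypes without overlap, *Myo7a* being 1 of them. *Efr3b*, on chromosome 12 beside *Pomc*, had a log2 fold change of 1.02 (SE 0.0435).

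**Figure D2:**
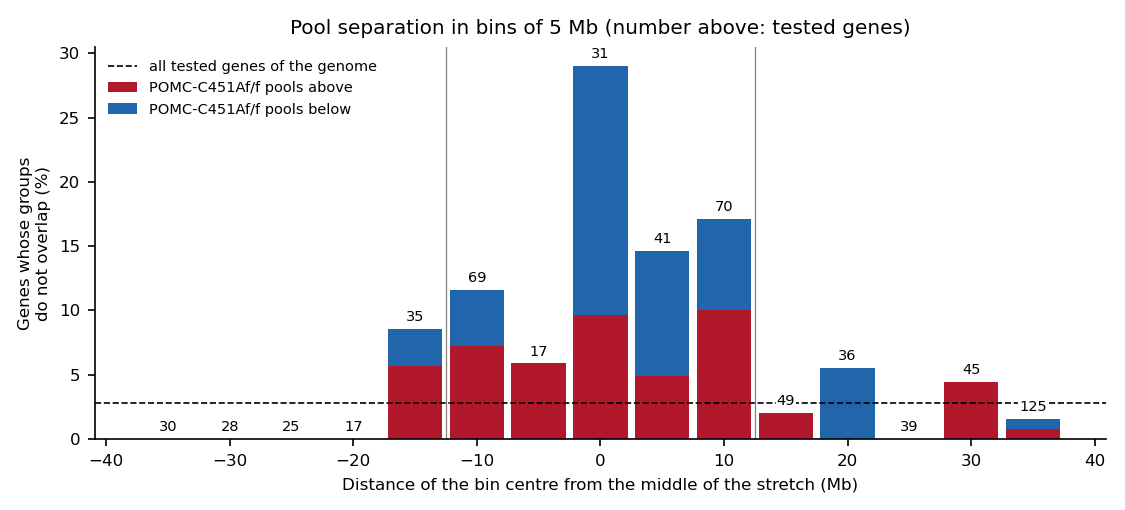
The percentage of tested genes whose genotypes did not overlap (y axis, bars split into POMC-C451Af/f above in red and below in blue) in bins of 5 Mb, placed by the distance of the bin centre from the middle of the stretch in Mb (x axis). Numbers give the tested genes of a bin and the dashed line the 2.78% of all tested genes; the 5 bins between the grey lines lie above it, up to 29.0% in the middle, and so do 3 bins outside, the highest at 8.57%.

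By annotated type, 185 members were protein-coding, 21 were TEC (a GENCODE class of transcribed regions still awaiting experimental evidence), 7 antisense, 7 processed pseudogenes and 6 lincRNAs, with 6 members of 4 other types. Genotypes did not overlap in 25 of the 184 tested protein-coding members (12 higher, 13 lower) and in 5 of the 21 TEC members (3 higher, 2 lower), which is 13.6% and 23.8%, beside 15.8% of all tested members and 2.78% of all tested genes. Both bidirectional promoter lncRNAs, *2310010J17Rik* and *4632427E13Rik*, were lower without overlap. The median level was 16.1 CPM for protein-coding and 0.612 CPM for TEC members, and the median absolute log2 fold change 0.08 and 0.34. The larger fold changes thus belonged mainly to transcripts with few counts, whose errors are wider, and *Hddc3* was the most different of the separated members above 10 CPM.

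**Figure D3:**
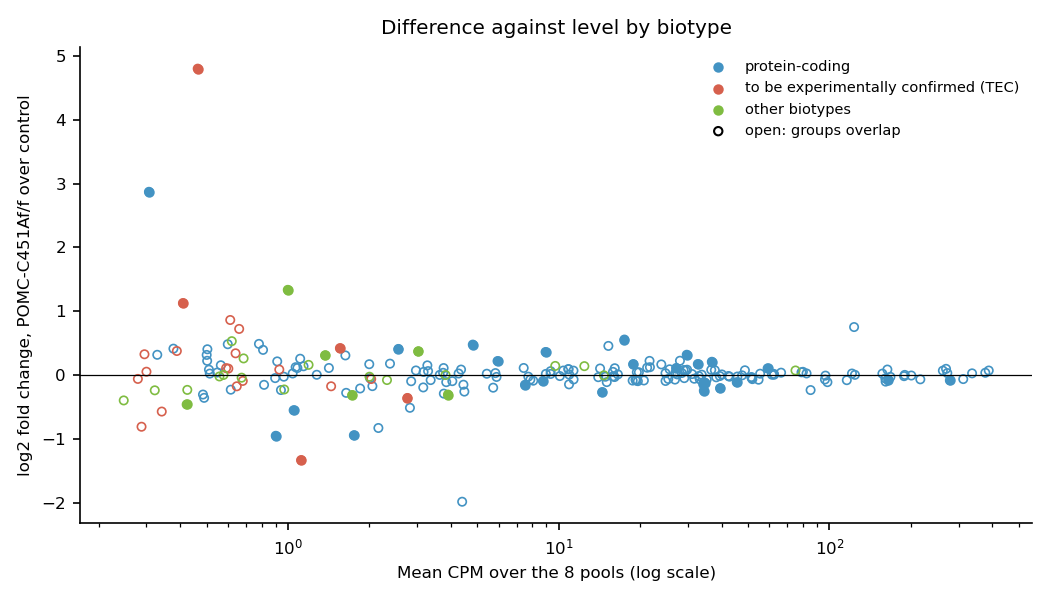
The log2 fold change of each tested member (y axis) against its mean CPM over the 8 pools (x axis, log scale), coloured by annotated type; filled points are members whose genotypes did not overlap. Fold changes beyond 1 in either direction belong to members near or below 1 CPM, except for 1 open point, *Gm45837*, at -1.98.

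Of the 22 genes of the list of mitochondria and metabolism, 21 were tested members, 11 higher and 10 lower. Genotypes did not overlap in 11 of them, 8 higher and 3 lower, beside 15.8% of tested members and 2.78% of all tested genes; the median log2 fold change was 0.09, beside 0.00 over all tested genes. The list was put together with earlier results of these data known, so its count describes the choice as well as the genes. *Hddc3*, a hydrolase related to bacterial enzymes that degrade the alarmone ppGpp, was measured at 20.5, 22.7, 20.8 and 19.3 CPM in POMC-C451Af/f pools and 13.5, 13.1, 13.5 and 16.5 CPM in control pools. Every POMC-C451Af/f pool was above every control pool, and control pool 4 stood above the other controls. The means were 20.8 ± 1.39 CPM (SD, n = 4 pools) and 14.2 ± 1.58 CPM (SD, n = 4 pools), a log2 fold change of 0.56 (SE 0.0786). *Hddc3* overlaps the highly expressed *Man2a2* on the opposite strand over 11.3% of its exon bases; *Man2a2*, a Golgi mannosidase, had a log2 fold change of 0.10 (SE 0.0367) with overlapping genotypes. Whether the counting used strand is not stated, so reads from such partners may not be told apart.

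*Fah* encodes fumarylacetoacetate hydrolase, the last enzyme of tyrosine breakdown. It was at 35.1, 32.7, 34.2 and 30.0 CPM in POMC-C451Af/f pools and 25.5, 27.0, 27.4 and 25.7 CPM in control pools, with no overlap, and its log2 fold change was 0.32 (SE 0.0512). *Gm2115*, on the plus strand, ends at 84583531, and *Fah*, on the minus strand, spans 84585159 to 84606722, so their 3′ ends face each other. Its levels were 9.33, 9.35, 11.7 and 9.85 CPM against 6.77, 7.999, 7.77 and 8.74 CPM, a log2 fold change of 0.36 (SE 0.101). *Coa4*, an assembly factor of cytochrome c oxidase, was at 5.80, 5.13, 5.67 and 5.84 CPM in POMC-C451Af/f pools and 3.87, 4.26, 4.32 and 3.63 CPM in control pools. The genotypes were apart by more than the range within either, and the log2 fold change was 0.48 (SE 0.0946).

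*Stard5*, a START-domain protein that binds sterols and bile acids, had 5.83, 6.77, 6.94 and 6.06 CPM in POMC-C451Af/f pools and 5.18, 5.80, 5.21 and 5.75 CPM in control pools. Its lowest POMC-C451Af/f pool and its highest control pool were close, and the log2 fold change was 0.22 (SE 0.0901). *Stard10*, a carrier of phospholipids, *Me3*, the mitochondrial malic enzyme, *Acer3*, an alkaline ceramidase, and *Clpb*, a protein disaggregase of mitochondria, were also separated, with log2 fold changes of 0.18, 0.17, 0.11 and 0.11 and SE between 0.0338 and 0.0530. *Inppl1* encodes SHIP2, a phosphatase that removes a phosphate from PIP3 and dampens insulin signalling. It was at 38.9, 40.8, 39.0 and 39.2 CPM in POMC-C451Af/f pools and 35.0, 35.3, 33.1 and 33.1 CPM in control pools. Both genotypes were tight and did not overlap, and the log2 fold change of 0.21 had an SE of 0.0368.

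Among the lower members, *Tmem126b*, an assembly factor of respiratory complex I, was at 37.1, 36.9, 37.0 and 35.9 CPM in POMC-C451Af/f pools and 42.4, 40.8, 43.8 and 42.1 CPM in control pools. The POMC-C451Af/f pools differed from each other by little and all lay below the controls, with a log2 fold change of -0.20 (SE 0.0343). Its neighbour and relative *Tmem126a* had a log2 fold change of -0.02 (SE 0.0589) with overlapping genotypes. *Alg8*, a glucosyltransferase that builds the precursor of N-linked glycans, was separated at a log2 fold change of -0.15 (SE 0.0738), and the mitochondrial uncoupling protein gene *Ucp2* overlapped at -0.23 (SE 0.103). *Rnf169*, a ubiquitin-binding protein at broken DNA ends, was at 31.4, 33.5, 30.3 and 30.7 CPM in POMC-C451Af/f pools and 37.3, 36.03, 35.6 and 40.0 CPM in control pools, a log2 fold change of -0.24 (SE 0.0476). *Pgap2*, which remodels the lipid of GPI anchors, was at 14.1, 14.3, 12.47 and 11.7 CPM against 17.4, 15.9, 14.99 and 14.9 CPM, a log2 fold change of -0.26 (SE 0.0786). For both genes the 4 control pools were the higher ones.

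The separated lower members also included *Klhl35* and *Tmc3*, both near 1 CPM. *Klhl35*, a Kelch-like protein gene that was named after its values were seen, was at 0.617, 0.591, 0.562 and 0.695 CPM in POMC-C451Af/f pools and 0.893, 1.26, 1.55 and 1.03 CPM in control pools, a log2 fold change of -0.95 (SE 0.211). *Tmc3*, of the transmembrane channel-like family, was at 0.914, 0.591, 0.927 and 0.974 CPM against 1.26, 1.31, 1.15 and 1.27 CPM, a log2 fold change of -0.55 (SE 0.182). In *Tmc3* a single POMC-C451Af/f pool was well below the other 3. *Tmc3* shares 43.9% of its exon bases with *Gm16638* on the opposite strand, which was at 10.2 CPM in POMC-C451Af/f mice and 9.22 CPM in controls and had a log2 fold change of 0.15 (SE 0.0760).

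**Figure D4:**
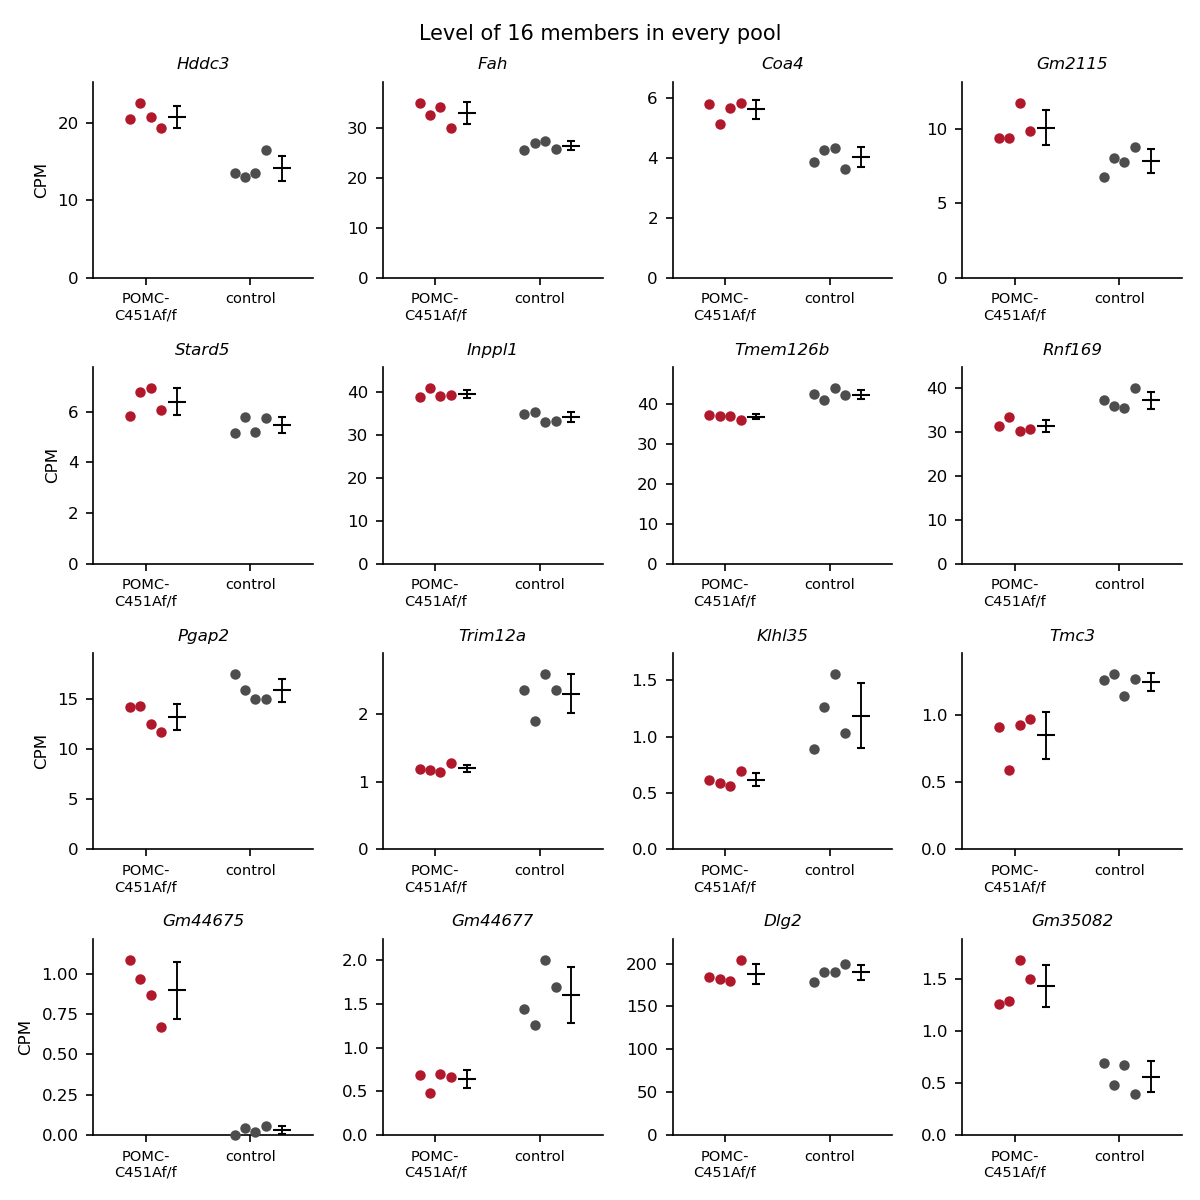
CPM (y axis, from 0) of 16 members in the 4 POMC-C451Af/f pools (red) and the 4 control pools (grey), with mean and SD beside the points. In 15 panels the genotypes do not overlap, as for *Fah* with 30.0 CPM or more against 27.4 CPM or less, and in the panel of *Dlg2* they do.

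The upstream sequences of 3 of these genes are shown, with genes of both directions, and were chosen after their values were seen. They are the 250 bases before the RefSeq start on GRCm38.p6, 5′ to 3′ on the strand of the gene: *Hddc3* from 80342887 to 80343136 on the plus strand, *Fah* from 84605943 to 84606192 and *Tmem126b* from 90475996 to 90476245 on the minus strand of chromosome 7. RefSeq and GENCODE starts differ here: the *Fah* window lies within the GENCODE span of the gene, 84585159 to 84606722. The windows of *Hddc3* and *Tmem126b* overlap the first bases of their GENCODE spans. Capitals mark GGTCA or its complement TGACC, an arm of the estrogen response element, searched on both strands.
Hddc3: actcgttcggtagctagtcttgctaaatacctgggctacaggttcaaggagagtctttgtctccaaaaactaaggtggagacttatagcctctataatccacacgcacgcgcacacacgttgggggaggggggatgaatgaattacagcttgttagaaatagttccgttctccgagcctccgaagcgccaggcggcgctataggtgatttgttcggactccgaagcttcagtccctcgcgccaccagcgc
Fah: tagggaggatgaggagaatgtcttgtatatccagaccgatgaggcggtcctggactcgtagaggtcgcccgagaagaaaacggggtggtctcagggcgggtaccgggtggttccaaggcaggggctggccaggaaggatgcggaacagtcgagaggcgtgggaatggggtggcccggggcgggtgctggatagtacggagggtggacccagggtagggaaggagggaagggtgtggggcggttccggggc
Tmem126b: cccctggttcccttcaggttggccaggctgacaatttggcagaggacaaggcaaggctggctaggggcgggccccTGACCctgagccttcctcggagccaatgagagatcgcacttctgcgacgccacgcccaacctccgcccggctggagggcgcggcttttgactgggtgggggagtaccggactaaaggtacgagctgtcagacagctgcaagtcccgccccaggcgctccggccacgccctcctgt
This arm is in the window of *Tmem126b* and not in those of *Hddc3* and *Fah*; of the 2 windows in the table for *Inppl1*, a higher member, 1 holds it. It was in 35.2% of all 32851 promoters of the table and in 31.3% of the 214 promoters that matched 164 members by symbol, and in 18.6% of the 43 promoters of 29 members without overlap. The whole element, GGTCA and TGACC with 3 bases between them, reads the same on both strands and was in 0.0639% of all promoters and in 0 of those of members. A match describes the letters of a window and says nothing of binding.

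The TRIM cluster held both a large positive and a large negative difference. Of the 12 genes of this list, 10 were tested members, 5 higher and 5 lower, with a median log2 fold change of -0.04, and genotypes did not overlap in *Trim34b* and *Trim12a*, 2 of 10, beside 15.8% of tested members and 2.78% of all tested genes. *Trim34b* had 0.469, 0.457, 0.702 and 0.528 CPM in POMC-C451Af/f pools and 0, 0.115, 0.0204 and 0.159 CPM in control pools, which is 80 counts against 12. The ratio of the summed counts per library size was 7.62, with a 95% exact interval of 4.13 to 15.4 that covers counting error alone, and the fitted log2 fold change was 2.87 (SE 0.539). Its close copy *Trim34a* was at 2.86, 2.18, 2.22 and 2.03 CPM in POMC-C451Af/f pools and 4.47, 2.59, 3.07 and 3.15 CPM in control pools. The genotypes of *Trim34a* overlapped, with a log2 fold change of -0.51 (SE 0.181). *Trim34b* (104329471 to 104336909) and *Trim34a* (104244457 to 104262234), both on the plus strand, are identical at 1438 of 1455 aligned coding bases, so the division of reads between them is uncertain. The 120 bases from 7 to 126 of the coding sequence, counted from its first base, hold the most differences of any window of that length, 5, shown in capitals to let the copies be compared.
Trim34a: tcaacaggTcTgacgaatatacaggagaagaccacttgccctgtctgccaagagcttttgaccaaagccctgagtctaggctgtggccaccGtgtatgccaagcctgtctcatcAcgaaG
Trim34b: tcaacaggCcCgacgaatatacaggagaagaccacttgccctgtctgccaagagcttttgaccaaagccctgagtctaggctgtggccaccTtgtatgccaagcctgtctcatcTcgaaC
With the counts of both summed, an alternative chosen after seeing the data, the levels were 3.33, 2.63, 2.92 and 2.56 CPM in POMC-C451Af/f pools and 4.47, 2.70, 3.09 and 3.31 CPM in control pools. The genotypes then overlapped, and the log2 fold change was -0.24 (SE 0.164), opposite in sign to that of *Trim34b* alone.

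*Trim12a* was at 1.19, 1.18, 1.15 and 1.279 CPM in POMC-C451Af/f pools and 2.36, 1.90, 2.60 and 2.36 CPM in control pools. All 4 POMC-C451Af/f values were close together and below the lowest control, and the log2 fold change was -0.94 (SE 0.140). Coding bases 1 to 895 of *Trim12c* aligned to the *Trim12a* transcript with 33 differences. *Trim12c* was at 3.58, 5.13, 3.59 and 3.31 CPM against 3.77, 3.78, 3.58 and 3.31 CPM, a log2 fold change of 0.11 (SE 0.143). *Trim5*, with a similar sequence, had a log2 fold change of -0.35 (SE 0.292). Only *Trim12a* of these 3 was separated. The stretch of coding bases 136 to 255 of *Trim12c* (104338754 to 104353362, minus strand) and the matching bases of *Trim12a* (104299894 to 104315466, minus strand) are shown with their 11 differences in capitals.
Trim12c: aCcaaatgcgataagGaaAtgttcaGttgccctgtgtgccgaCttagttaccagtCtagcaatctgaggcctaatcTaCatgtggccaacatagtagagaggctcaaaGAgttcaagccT
Trim12a: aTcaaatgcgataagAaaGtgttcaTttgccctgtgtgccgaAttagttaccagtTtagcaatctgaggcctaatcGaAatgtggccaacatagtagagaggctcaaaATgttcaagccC
Summed over *Trim12a*, *Trim12c* and *Trim5*, the levels were 5.09, 6.93, 5.19 and 4.92 CPM in POMC-C451Af/f pools and 6.72, 6.03, 6.85 and 6.25 CPM in control pools, and POMC-C451Af/f pool 2 lay above all control pools. The log2 fold change of the sum was -0.22 (SE 0.117). *Trim30d* was lower at -0.83 (SE 0.223) with overlapping genotypes, and its relative *Trim30a* was at -0.09 (SE 0.145). Summed, *Trim30a* and *Trim30d* had a log2 fold change of -0.40 (SE 0.147), also with overlapping genotypes. *Trim68*, the most abundant member of the list, had a log2 fold change of 0.02 (SE 0.125).

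*Mrpl48* encodes a protein of the large subunit of the mitochondrial ribosome and has a processed pseudogene, *Mrpl48-ps*, on chromosome 4 (88599175 to 88599810), that shares 621 of its 633 coding bases. *Mrpl48* was at 42.8, 42.4, 45.0 and 44.7 CPM in POMC-C451Af/f pools and 48.0, 45.7, 46.9 and 48.3 CPM in control pools, a log2 fold change of -0.11 (SE 0.0361) without overlap. It shares 8.68% of its exon bases with the more abundant *Rab6a* on the opposite strand, whose reads may not be told apart. The pseudogene had 85.2, 87.7, 89.8 and 93.3 counts in POMC-C451Af/f pools and 0 in each control pool, at least 33.7-fold higher against a floor of 3 counts per library. Bases 330 to 449 of the *Mrpl48* coding sequence (100545751 to 100608301, minus strand) and the matching bases of the pseudogene are shown with their 7 differences in capitals.
Mrpl48: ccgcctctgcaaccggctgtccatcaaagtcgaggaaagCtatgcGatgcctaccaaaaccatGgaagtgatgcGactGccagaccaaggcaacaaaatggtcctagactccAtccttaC
Mrpl48-ps: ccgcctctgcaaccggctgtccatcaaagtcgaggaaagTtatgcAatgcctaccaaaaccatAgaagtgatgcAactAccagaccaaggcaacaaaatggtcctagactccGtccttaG
With both summed the levels were 44.9, 44.8, 47.5 and 47.3 CPM in POMC-C451Af/f pools and 48.0, 45.7, 46.9 and 48.3 CPM in control pools. The genotypes then overlapped, and the log2 fold change was -0.03 (SE 0.0367). In all, 38 of the 185 members with a coding sequence shared at least 50% of it, at 90% identity or more, with a transcript of another gene.

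**Figure D5:**
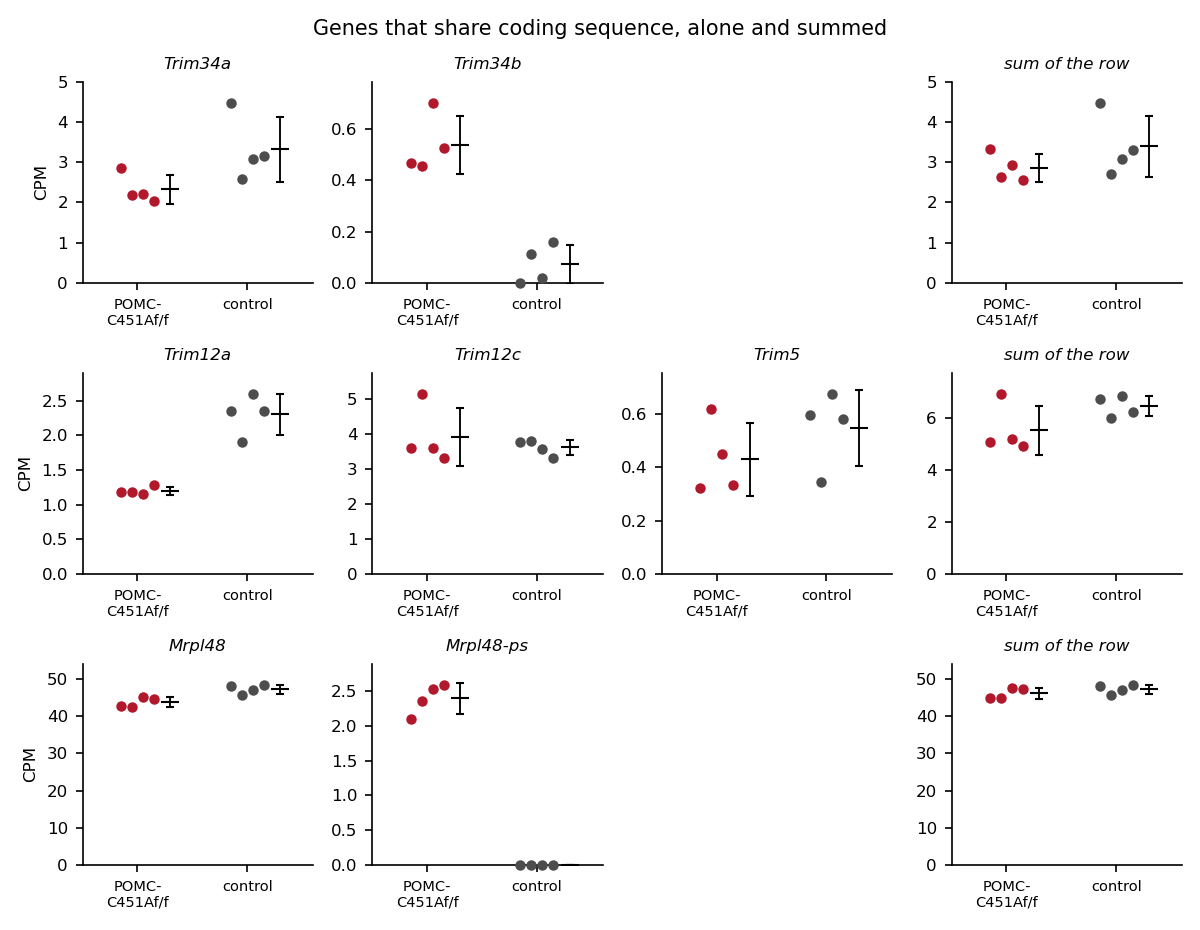
CPM (y axis, from 0) in the POMC-C451Af/f pools (red) and control pools (grey) for genes that share coding sequence, each alone and, in the last column, summed over the row, with mean and SD. The genotypes are apart for *Trim34b*, *Trim12a*, *Mrpl48* and *Mrpl48-ps* alone and overlap in all 3 sums.

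The largest fold change among the tested members belonged to *Gm44675* (91564367 to 91567293). This TEC transcript lies in an intron of *Dlg2* on the same strand and shares none of its exon bases. It had 1.09, 0.967, 0.871 and 0.668 CPM in POMC-C451Af/f pools and 0, 0.0458, 0.0204 and 0.0530 CPM in control pools, which is 135 counts against 5. The ratio of summed counts per library size was 30.9, with a 95% exact interval of 12.9 to 96.6. *Gm44677* (91627272 to 91631010), a second TEC transcript within *Dlg2*, also intronic and on its strand, differed in the opposite direction, with 0.691, 0.484, 0.702 and 0.668 CPM in POMC-C451Af/f pools and 1.44, 1.26, 2.004 and 1.70 CPM in control pools, a log2 fold change of -1.33 (SE 0.203). *Dlg2* itself, a scaffold protein of the postsynaptic density, was at 185, 182, 180 and 204 CPM in POMC-C451Af/f pools and 178, 190, 191 and 200 CPM in control pools. The host gene overlapped between genotypes, at a log2 fold change of -0.01 (SE 0.0485). The other 3 tested members within *Dlg2* on its strand, *Gm45159*, *Gm45179* and *Gm44678*, also overlapped, at 0.16 (SE 0.198), -0.06 (SE 0.274) and -0.09 (SE 0.249). The TEC transcript *Gm45220* lies in *Picalm*, a clathrin assembly gene, and had a log2 fold change of 1.13 (SE 0.300) beside 0.02 (SE 0.0365) for *Picalm*; it was named after its values were seen. *Gm45221*, also TEC and within *Picalm* on the same strand, overlapped at 0.05 (SE 0.362).

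The lincRNA *Gm35082* had 1.26, 1.29, 1.68 and 1.502 CPM in POMC-C451Af/f pools and 0.695, 0.481, 0.675 and 0.397 CPM in control pools, a log2 fold change of 1.34 (SE 0.212). Its lowest POMC-C451Af/f pool was above its highest control pool by more than the range of the controls. *2310010J17Rik*, a lncRNA on the other strand from *Picalm* whose 5′ end at 90129984 faces the *Picalm* start at 90130213, was at 2.99, 3.68, 3.54 and 3.76 CPM against 4.44, 4.13, 3.84 and 4.82 CPM, a log2 fold change of -0.30 (SE 0.114). *4632427E13Rik*, which faces *Rab30* in the same way, had a log2 fold change of -0.31 (SE 0.121), and *Rab30*, a small GTPase of the Golgi, had one of 0.23 (SE 0.0820) with overlapping genotypes. *Gm49493*, a TEC transcript within *Mesd* that covers 62.6% of the *Mesd* coding sequence at 100% identity, was separated at 0.42 (SE 0.127), while *Mesd*, a chaperone of LDL receptors, was at -0.11 (SE 0.0487) and overlapped. Summed, *Gm49493* and *Mesd* had a log2 fold change of -0.10 (SE 0.0483). *6430511E19Rik* and *Gm26944*, which overlap in position and lie across from *Pcf11*, were both lower without overlap, at -0.36 (SE 0.126) and -0.46 (SE 0.212), and *Pcf11* was at -0.01 (SE 0.0534). *Gm15506* and *Gm45038* were higher without overlap, at 0.37 (SE 0.119) and 0.31 (SE 0.137).

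The olfactory receptor cluster contributed 12 members. *Olfr635*, at 2.94, 2.77, 2.86 and 3.12 CPM in POMC-C451Af/f pools and 2.53, 1.97, 2.29 and 1.99 CPM in control pools, was separated, with a log2 fold change of 0.41 (SE 0.121). The genotypes of the other 11 overlapped, where 15.8% of tested members and 2.78% of all tested genes were without overlap. *Hbb-bs*, which encodes adult beta-globin, was at 149, 152, 244 and 74.9 CPM in POMC-C451Af/f pools and 124, 99.6, 60.7 and 83.3 CPM in control pools. It varied widely within POMC-C451Af/f mice, from the lowest value in pool 4 to the highest in pool 3, and its log2 fold change of 0.75 had an SE of 0.305. The list of 5 red blood cell markers, led by *Hbb-bs*, summed to 329, 338, 545 and 177 CPM in POMC-C451Af/f pools and 299, 229, 139 and 201 CPM in control pools; all 5 were higher in POMC-C451Af/f mice with overlapping genotypes, and their part in the result was not tested. *Gm45837*, a gene annotated as protein-coding that shares 97.0% of its coding sequence with the phosphodiesterase gene *Pde2a*, ranged from 0 to 3.34 CPM and from 0.917 to 13.9 CPM, and the genotypes overlapped at -1.98 (SE 0.825); summed with *Pde2a* it had a log2 fold change of -0.10 (SE 0.0404).

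The most abundant members differed little. *Plekhb1*, a membrane-associated protein with a pleckstrin homology domain, was at 388, 371, 435 and 398 CPM in POMC-C451Af/f pools and 358, 387, 386 and 382 CPM in control pools. *Rab6a*, a GTPase of Golgi transport, had mean levels of 382 CPM in POMC-C451Af/f mice and 372 CPM in controls. *Arrb1*, encoding beta-arrestin 1, and *Arnt2*, the partner of SIM1 in the development of hypothalamic neurons, were at 340 and 306 CPM in POMC-C451Af/f mice and 333 and 319 CPM in controls, all with overlapping genotypes and absolute log2 fold changes of 0.07 or less. *Arhgef17*, a guanine nucleotide exchange factor, was the exception, at 281, 270, 260 and 273 CPM in POMC-C451Af/f pools and 292, 284, 287 and 283 CPM in control pools, a separation with a log2 fold change of -0.08 (SE 0.0307). Per kilobase of exon, mean levels over all pools were 104 CPM for *Plekhb1*, 101 CPM for *Rab6a*, 40.6 CPM for *Arnt2*, 30.1 CPM for *Arrb1* and 25.8 CPM for *Arhgef17*.

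Of 18 tested genes of synapse and neuronal signalling, led by *Arrb1* and including *Grm5* and *Dlg2*, 11 were higher and 7 lower, with a median log2 fold change of 0.02 and only *Arhgef17* separated, beside 2.78% of all tested genes. All 20 genes of trafficking, lysosome and secretion, led by *Rab6a*, overlapped between genotypes, 12 higher and 8 lower, with a median of 0.03. In edgeR's fit 5 of the 20 had an unadjusted p under 0.05, beside 45 of the 228 tested members and 5.1% of all tested genes. Of 17 genes of chromatin, transcription and cell division, led by *Numa1*, 4 were higher and 13 lower, with a median of -0.03, and *Zscan2* alone was separated, at -0.09 (SE 0.0609). *Pgm2l1*, the most abundant gene of the metabolic list and an enzyme that makes glucose 1,6-bisphosphate, had a log2 fold change of 0.09 (SE 0.0607) with overlapping genotypes. The remaining separated members were *Ngrn*, a factor of the mitochondrial ribosome that the metabolic list does not hold, the deubiquitinase gene *Usp35* and *Ppme1*, which removes the methyl group of protein phosphatase 2A, at -0.13, -0.12 and -0.07.

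Within genotypes, the median SD of log2 CPM was 0.112 for all 228 tested members and 0.0994 for 18241 of the 18637 tested genes. Above a mean of 1 CPM, it was 0.0949 for 179 members and 0.0863 for 15452 tested genes. The highest SD among these members was 1.39 for *Gm45837*, followed by 0.582 for *Hbb-bt* and 0.581 for *Hbb-bs*. The median correlation between neighbouring members of their deviations from the genotype means, over 8 pools, was -0.00901 for 227 neighbouring pairs. It was 0.0647 for 18219 pairs among the 18241 genes. Both values rest on shared libraries and are given as a description.

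At the edges of the stretch, *Zfp710* (80024814) was the first member and *Arpin* (79925361) the nearest gene outside, with log2 fold changes of 0.05 (SE 0.0658) and 0.00 (SE 0.0496). At the other end, *Olfr667* (104914742) was the last member and *Fam160a2* (105371211) the nearest gene outside, at 0.41 (SE 0.259) and -0.02 (SE 0.0400). *Gm7067*, with 80.3 summed counts, was just above the minimum at a log2 fold change of -0.39 (SE 0.372), and *Olfr658*, with 76.0, was just below and not tested. The genotypes of all 6 genes overlapped.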

How the data were processed

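Hypothalamic RNA of 8 pools was sequenced by the authors from poly(A) libraries made with a stranded kit. The authors quantified reads with Salmon 1.10 (per the submitters' processing notes) against a GENCODE transcriptome of GRCm39 and deposited estimated counts per gene without normalization. Their deposited comparison table, from DESeq2 1.40, holds log2 fold changes, standard errors, statistics and p-values and was not used. All 8 count columns were used, and 0 per-sample columns were left unused. Members and lists were chosen with earlier results of these data known.

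Identifiers were matched to GENCODE M21 (GRCm38) without converting coordinates; 51424 matched. Counts were rounded, filtered with filterByExpr (minimum count 10, minimum total 15), scaled with TMM and fitted over 18637 genes with edgeR 4.0.16 (glmQLFit, genotype alone) in R 4.3.3, with Benjamini-Hochberg adjustment. The SE is the absolute log2 fold change over the square root of F. No pair of pools had a chi-square per degree of freedom below 4.39. Coding sequences were compared with blastn 2.17.0. Floors and intervals cover counting error only.

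Named genes were, by rule, the 10 highest and 10 lowest log2 fold changes among tested members without overlap and a mean of 1 CPM or more; members called by edgeR or DESeq2 1.42.0; the 5 most abundant; the most abundant of each list; those nearest each edge and the minimum count; *Myo7a*, *Pomc*, *Esr1* and *Efr3b*; and genes sharing sequence or position with these. Other separated members, list examples and flanking genes were named after their values were seen. Alternatives were DESeq2, its size factors, total counts, robust fitting, the filter dropped or raised to 10 counts in each pool, a block for the replicate number, FDR alone, a log2 fold change over 1, bins of 1 Mb and each pool left out; chosen after seeing the data were the midbrain list as a covariate and summed counts of genes that share coding sequence.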

Additional observations from a re-analysis of the deposited data

Results flagged for a closer look

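Each of the 50 members named by rule was examined for a single pool far from the other 3 of its genotype, in 100 groups of 4 pools, and 6 groups had one; chance gives about 1 in 20. *Hddc3* was at 16.5 CPM in control replicate 4, above the other controls and below all POMC-C451Af/f pools. In POMC-C451Af/f replicate 2, *Inppl1* was at 40.8 CPM, *Trim12c* at 5.13 CPM, *Gm44677* at 0.484 CPM and *Tmc3* at 0.591 CPM, the first 2 above and the last 2 below the other pools of that genotype. *Tmem126b* was at 35.9 CPM in POMC-C451Af/f replicate 4, below the others. Except for *Trim12c*, whose genotypes overlapped, the genotypes of these genes were separate with the pool included. The 29 other members that the text names were examined as well, and 6 of their 58 groups had such a pool. *Ngrn* was at 34.6 CPM in control replicate 4, below the other controls. *Tmem126a* at 16.2 CPM in control replicate 1, *Rps13-ps2* at 3.92 CPM in control replicate 2 and *Gm45159* at 1.56 CPM in control replicate 4 were above the other controls. *Grm5* at 93.6 CPM in POMC-C451Af/f replicate 4 and *Trim30d* at 2.31 CPM in POMC-C451Af/f replicate 2 were above the other pools of that genotype. Of these 6 genes only *Ngrn* had separate genotypes.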

How the results depend on the processing

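The count of members called was 1 with edgeR, 6 with DESeq2, 2 without a filter (0.0155% of all tested genes), 2 with robust fitting (0.0268%) and 0 with at least 10 counts in every pool, a filter that *Gm44675* fails; in that fit 41 members had an unadjusted p under 0.05, beside 5.18% of all tested genes. With the replicate block it was 0, and 40 members had an unadjusted p under 0.05, beside 6.06% of all tested genes; pools that share a number were not paired, as their deviations correlated at 0.14, -0.18, -0.11 and 0.24. Leaving out 1 pool gave 1 to 2 members called, 2 without control replicate 4 (0.0211% to 0.0265% of all tested genes). Members with an unadjusted p under 0.05 numbered 45, 34 to 50 with 1 pool left out (3.37% to 9.38% of all tested genes) and 26 when the midbrain list entered as a covariate, an alternative added after the data were seen, where 2.92% of all tested genes passed; the cause was not tested. Non-overlapping members numbered 36, 34 with total counts (2.75% of all tested genes) and 39 to 52 with 1 pool left out, when fewer pools have to separate and 4.61% to 8.59% of all tested genes did. Bins of 5 Mb held such a member in 100% and bins of 1 Mb in 64.0%. Summing copies, also chosen later, gave *Trim34b* with *Trim34a* -0.24. Of 805 log2 fold changes of 50 named members under alternatives, 36 moved by 1 SD or more. The sign changed under at least 1 alternative for 13 members. With copies summed it changed for *Trim34b*, which DESeq2 called and edgeR did not, for *Gm49493* (0.42 to -0.10) and for *Trim12c* (0.11 to -0.22). Elsewhere it changed for members with an absolute log2 fold change of 0.11 or less.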
